A study of Mus musculus with 12 samples.

Results

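The genes of glycolysis and pyruvate metabolism were followed in mouse acute myeloid leukaemia cells while the transcription factor PU.1 was restored. The set was a given list of 38 gene symbols, from glucose transporters to the pyruvate dehydrogenase complex, matched to 38 of the 27179 Entrez genes in the count tables, and 36 of the 38 had enough counts to be tested. Eno2 and Pdk4 did not pass the filter on low counts: Eno2 had at most 1.72 CPM in a library, and Pdk4 had 0 counts in all 12. The cells, AML246, were p53-/- and carried shPU.1, a short hairpin RNA against PU.1 that is linked to GFP. They were taken from the bone marrow of leukaemic C57BL/6 recipient mice and sorted by GFP, which follows the hairpin. Dox (doxycycline) given to the mice shut the hairpin off. The day 2 group was sorted as GFPhigh-mid, the day 4 group as GFPmid, the day 6 group as GFPlow and the untreated group, in which the hairpin was on, as GFPhigh, with 3 libraries in each group. The untreated controls thus carried the p53 deletion and the hairpin too. The sort gate cannot be told apart from the days of Dox, nor can an effect of Dox itself from the shut-off of the hairpin. The titles call the replicates technical whereas the design text speaks of triplicate mice, so p-values measure the spread between these libraries, which may be technical.

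Glycolysis breaks glucose down to pyruvate in the cytosol, and most of its steps can be run by several isoenzymes that differ in affinity, regulation and tissue. Pyruvate is then either reduced to lactate by lactate dehydrogenase and exported by monocarboxylate transporters, or oxidised by the mitochondrial pyruvate dehydrogenase complex, which pyruvate dehydrogenase kinases switch off. Neutrophils, the cells that myeloid precursors such as these can mature into, are known to rely largely on glycolysis for energy. PU.1, encoded by Spi1, is an ETS family factor needed for myeloid maturation, and HIF-1, whose regulated subunit is Hif1a, is a known activator of many glycolytic genes.

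The promoters of 4 members are shown because they form pairs that moved in opposite directions. Slc16a3 and Slc16a1 encode monocarboxylate transporters, and Hk3 and G6pc3 encode an enzyme that puts the phosphate on glucose and one that takes it off. Each runs 5′ to 3′ on the gene's own strand from 250 bases before to 50 bases after the RefSeq transcript start (build GRCm38.p6, the same sequence as mm10). Hk3 lies on the minus strand at chr13:55021336-55021635, and on the plus strand G6pc3 lies at chr11:102189449-102189748, Slc16a3 at chr11:120948817-120949116 and Slc16a1 at chr3:104638414-104638713. Capitals mark GAGGAA, a core bound by PU.1 and other ETS factors, and ACGTG, the core of the hypoxia response element bound by HIF-1, each in either orientation (TTCCTC and CACGT); the palindrome CACGTG therefore counts as 2 ACGTG matches.
Hk3: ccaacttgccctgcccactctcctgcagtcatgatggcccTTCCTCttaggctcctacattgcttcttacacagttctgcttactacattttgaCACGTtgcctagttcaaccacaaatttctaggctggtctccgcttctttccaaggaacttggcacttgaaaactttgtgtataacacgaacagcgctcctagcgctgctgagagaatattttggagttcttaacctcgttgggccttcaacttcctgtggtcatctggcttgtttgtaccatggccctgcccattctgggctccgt
G6pc3: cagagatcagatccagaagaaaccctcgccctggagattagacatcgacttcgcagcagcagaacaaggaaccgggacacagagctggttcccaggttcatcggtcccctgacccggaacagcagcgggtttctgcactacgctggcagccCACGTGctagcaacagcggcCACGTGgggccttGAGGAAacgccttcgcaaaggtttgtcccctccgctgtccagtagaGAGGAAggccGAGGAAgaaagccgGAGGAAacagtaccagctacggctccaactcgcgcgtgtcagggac
Slc16a3: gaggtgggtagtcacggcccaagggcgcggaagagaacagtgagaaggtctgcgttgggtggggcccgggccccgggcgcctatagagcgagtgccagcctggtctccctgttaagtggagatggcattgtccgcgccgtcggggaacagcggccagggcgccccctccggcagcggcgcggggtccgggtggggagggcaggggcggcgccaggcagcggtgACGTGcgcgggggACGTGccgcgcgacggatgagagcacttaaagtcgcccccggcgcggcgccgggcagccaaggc
Slc16a1: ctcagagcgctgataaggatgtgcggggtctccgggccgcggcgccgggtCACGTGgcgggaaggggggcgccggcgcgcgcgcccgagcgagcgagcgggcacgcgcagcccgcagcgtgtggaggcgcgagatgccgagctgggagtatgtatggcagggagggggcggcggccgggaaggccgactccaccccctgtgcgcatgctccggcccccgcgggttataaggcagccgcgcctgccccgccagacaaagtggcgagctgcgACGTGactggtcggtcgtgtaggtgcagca

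The Hk3 window held 1 match to GAGGAA and 1 to ACGTG, and the G6pc3 window held 4 of each. The Slc16a3 window held 2 matches to ACGTG and the Slc16a1 window held 3, and neither had a match to GAGGAA. RefSeq windows were at hand for 36 of the 38 members, as 52 promoters, without Slc2a3 and Pdp1. GAGGAA was found in 15 of these 52 promoters (28.8%), against 28.3% of 32851 promoters of all genes. ACGTG was found in 25 of the 52 (48.1%), against 19.6% of all promoters. Those promoters were not limited to genes that had enough counts to be tested here. Some of the member matches lay inside CACGTG, and the difference in share was not tested. A match describes the letters in the window and is not a measurement of binding, and several promoters belong to the same gene.

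The libraries held 4918920 to 7356166 counts. Spi1, the gene under the hairpin, had 54.2, 67.5 and 65.9 CPM in untreated libraries, 107, 98.8 and 123 after 2 days, 244, 267 and 269 after 4 days and 497, 439 and 438 after 6 days, and its day 6 change was 2.87 ± 0.12 (adjusted p = 2.79e-09). Every library of a later group was higher than every library of the group before it. Replicate 2 of day 6 was unlike replicates 1 and 3. The variance between libraries, relative to that expected from counting, was 44.1 and 38.3 in its pairs, 4.76 between day 6 replicates 1 and 3, and 2.62 to 10.5 in all other pairs. It also had the lowest day 6 sum of 13 mature neutrophil markers, such as S100a8, Ltf and Ly6g, a list added after the data were seen. That sum was 950.4 to 2065 CPM in untreated cells, 983 to 2168 CPM after 2 days, 2971 to 5549 CPM after 4 days and 68430.1 to 146144 CPM after 6 days, with none of the 13 at 0 in any group. All 13 were called higher at day 6. In bulk RNA a larger share of maturing cells and more RNA per cell cannot be told apart, and the part of this shift in the results on glycolysis was not tested. The 12 myeloid leukaemia markers, including Mpo, Elane and Kit, were all detected in every group, with sums of 10439 to 13898 CPM at day 6 and 29003 to 32746 CPM in untreated cells. At day 6, 6 of the 12 fell, among them Mpo, Elane and Kit, and 4 rose, namely Spi1, Cd33, Ptprc and Itgam. Of the 6 lists for other marrow cells, the sums of B cell, T and NK cell and megakaryocyte markers were at most 36.5 CPM in every library. T and NK cell markers reached 25 to 36.5 CPM at day 6, against 4.82 to 6.54 CPM in untreated cells. Eosinophil, basophil and mast cell markers varied most at day 4 (61.4 to 899 CPM, against 46.1 to 63.8 in untreated cells). Erythroid markers lay between 65.6 and 222 CPM, and stromal and endothelial markers were at 21.2 to 28.6 CPM at day 6 against 87.4 to 129 CPM in untreated cells.

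The 36 tested members moved in both directions, and none was called before day 4. Levels are counts scaled to library size with TMM factors (CPM). Means are ± SD over the 3 libraries of a group, and log2 changes are ± SE from edgeR's quasi-likelihood test, two-sided, with p-values adjusted by Benjamini-Hochberg over all 12057 genes tested and called under 0.05. At day 2 none of the 36 was called in either direction by edgeR or DESeq2, 8 had an unadjusted edgeR p under 0.05, and 1.05% of all genes tested were called higher and 0.406% lower. At day 4, 9 members rose and 7 fell (25% and 19.4%), against 22.1% higher and 20.2% lower over all genes. At day 6, 10 rose and 16 fell (27.8% and 44.4%), against 35% and 32.9% over all genes. The median log2 change of the 36 was -0.02 at day 4 and -0.06 at day 6, against -0.01 and 0.00 over all genes. A joint test of the 3 days against untreated called 27 of the 36 (75%), against 68.7% of all genes. The shares of members called at day 4 and in the joint test were thus near those of all genes, most of which moved. At day 6 the share called lower was above that of all genes and the share called higher was below it. This difference was not tested.

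More members were called from day 4 to day 6 than from day 2 to day 4, and the same held for all genes. From day 2 to day 4, 8 members rose and 4 fell (22.2% and 11.1%), against 15% and 10.2% of all genes. From day 4 to day 6, 7 rose and 13 fell (19.4% and 36.1%), against 23.6% and 22.6% of all genes. The counts before day 6 changed when 1 library was left out, and so did those of all genes. The 7 that fell at day 4 became 4 without untreated replicate 3 or day 4 replicate 2. Over all genes, the 2440 that fell became 2116 and 1670 in turn. Between days 2 and 4 the number that rose was 4 without day 2 replicate 1, day 2 replicate 2 or day 4 replicate 3, and 5 without day 4 replicate 1. The number that fell there was 0 without day 2 replicate 3, day 4 replicate 2 or day 4 replicate 3, 1 without day 2 replicate 1 or day 4 replicate 1, and 2 without day 2 replicate 2. Over all genes 1812 rose and 1230 fell there. Leaving out any 1 day 2 or day 4 library gave 1268 to 1627 that rose and 581 to 1050 that fell. Without day 6 replicate 2, which stood apart, 12 members rose and 16 fell at day 6, and 11 rose and 10 fell at day 4. Calls over all genes grew as well. They were 4416 higher and 4237 lower at day 6, against 4224 and 3967 with all libraries. At day 4 they were 3103 and 3040, against 2667 and 2440. Scaling to library totals in place of TMM moved the median of all genes by -0.51 (log2) at day 6, and 7 members were then called higher and 22 lower, so changes near that size depend on the scaling. Together the 38 members took 0.715% to 0.768% of a library's raw counts at day 6 and 0.821% to 0.862% in untreated cells. The direction of this share depends on the scaling too. TMM factors were 0.737 to 0.847 at day 6 and 1.09 to 1.15 in untreated libraries. Divided by them, the share of every day 6 library lies above that of every untreated library.

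**Figure D1:**
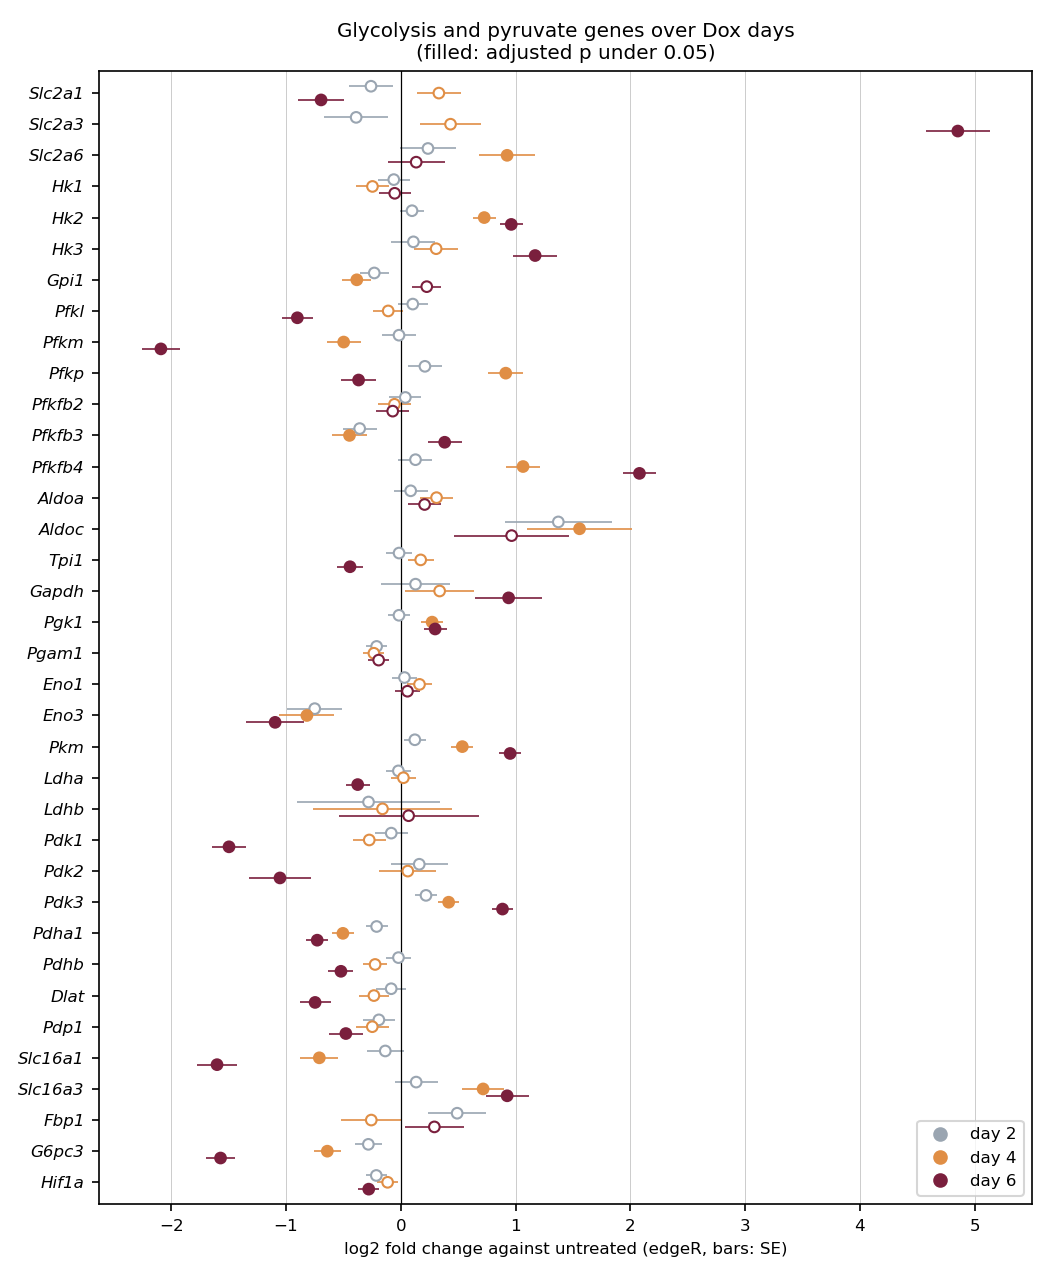
Log2 fold changes of the 36 tested members at day 2, day 4 and day 6 against untreated, in the order of the pathway, with bars for the SE and filled points for an adjusted p under 0.05. Slc2a3 stands at 4.85 and Pfkfb4 at 2.08 at day 6, Pfkm at -2.09, and no day 2 point is filled. Of the day 6 points filled above 0, those of Pfkfb3 and Pgk1 lie below 0 with library totals.

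Among the 3 listed glucose transporter genes, the one with the most RNA per kb at day 6 was not that of untreated cells. Uptake of glucose was not measured. Slc2a3, which encodes the high-affinity transporter GLUT3 (chromosome 6, 122727809 to 122802363), rose by 4.85 on the log2 scale, while Slc2a1, which encodes the broadly expressed GLUT1, fell. Slc2a3 had 21.6, 20.6 and 19.8 CPM in untreated libraries, 14.1, 13 and 19.8 after 2 days, 17, 35.9 and 30.8 after 4 days and 676, 441 and 677 after 6 days. The 3 day 6 libraries stood far above the other 9, and the lowest of them was replicate 2. The day 6 change was 4.85 ± 0.28 (adjusted p = 6.56e-08) against untreated and 4.42 ± 0.27 (adjusted p = 1.03e-06) against day 4, with 5.03, adjusted p = 4.98e-08 against untreated without day 6 replicate 2. Slc2a1 had 57.9, 64.3 and 79.9 CPM in untreated libraries, 64.2, 47.6 and 56.6 after 2 days, 98.9, 66.6 and 88.8 after 4 days and 53.7, 36.8 and 34.8 after 6 days. All 3 day 6 libraries lay below the untreated ones, at -0.69 ± 0.20 (adjusted p = 0.00776), and its day 4 change of 0.33 did not pass the test. Slc2a6, which encodes the intracellular family member GLUT6, had 35, 51.8 and 54.6 CPM in untreated libraries, 59.2, 59.3 and 48.4 after 2 days, 88.7, 92 and 88.1 after 4 days and 42, 76.3 and 35.7 after 6 days. It rose at day 4, with all 3 libraries above untreated (0.93 ± 0.24, adjusted p = 0.00985), and overlapped untreated again at day 6 (0.13, adjusted p = 0.648). Its fall between days 4 and 6 (-0.79 ± 0.24, adjusted p = 0.0202) was -1.21 without day 6 replicate 2 and lost its call without day 4 replicate 2, day 6 replicate 1 or day 6 replicate 3 (adjusted p of 0.0515, 0.0824 and 0.0719).

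Levels per kilobase of gene length allow the 3 transporters to be compared with each other. Slc2a1 averaged 26.2, 21.8, 32.9 and 16.2 CPM per kb, Slc2a6 22.1, 26, 41.9 and 24 and Slc2a3 5.22, 3.95, 7.04 and 151 in untreated, day 2, day 4 and day 6 cells in turn. The share of an isoform in the summed count per kb of its step, which library scaling does not touch, was for Slc2a3 9.99% ± 2.11 in untreated cells, 7.68% ± 2.08 at day 2, 8.67% ± 3.31 at day 4 and 78.3% ± 8.29 at day 6. For Slc2a1 it was 49% ± 2.69 in untreated cells, 42% ± 4.05 at day 2, 40.04% ± 6.32 at day 4 and 8.49% ± 1.62 at day 6. Within a library the ratio of Slc2a3 to Slc2a1 per kb was 8.17, 7.79 and 12.7 in the day 6 libraries, against 0.242, 0.208 and 0.161 in the untreated ones. Slc2a1 led in all 3 untreated libraries, Slc2a6 in all 3 at days 2 and 4, and Slc2a3 in all 3 libraries at day 6. The lead of Slc2a6 rests on gene length, since in CPM Slc2a1 was above it in 2 of 3 libraries at day 2 and in 2 of 3 at day 4. For this and every other share, an exact two-sided permutation test of 3 against 3 libraries cannot go below p = 0.1. Over the 75 exact permutation tests of 25 isoform shares against untreated, which are not independent because the shares of a step sum to 100%, the smallest p was 0.1 and the smallest adjusted p 0.174.

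**Figure D2:**
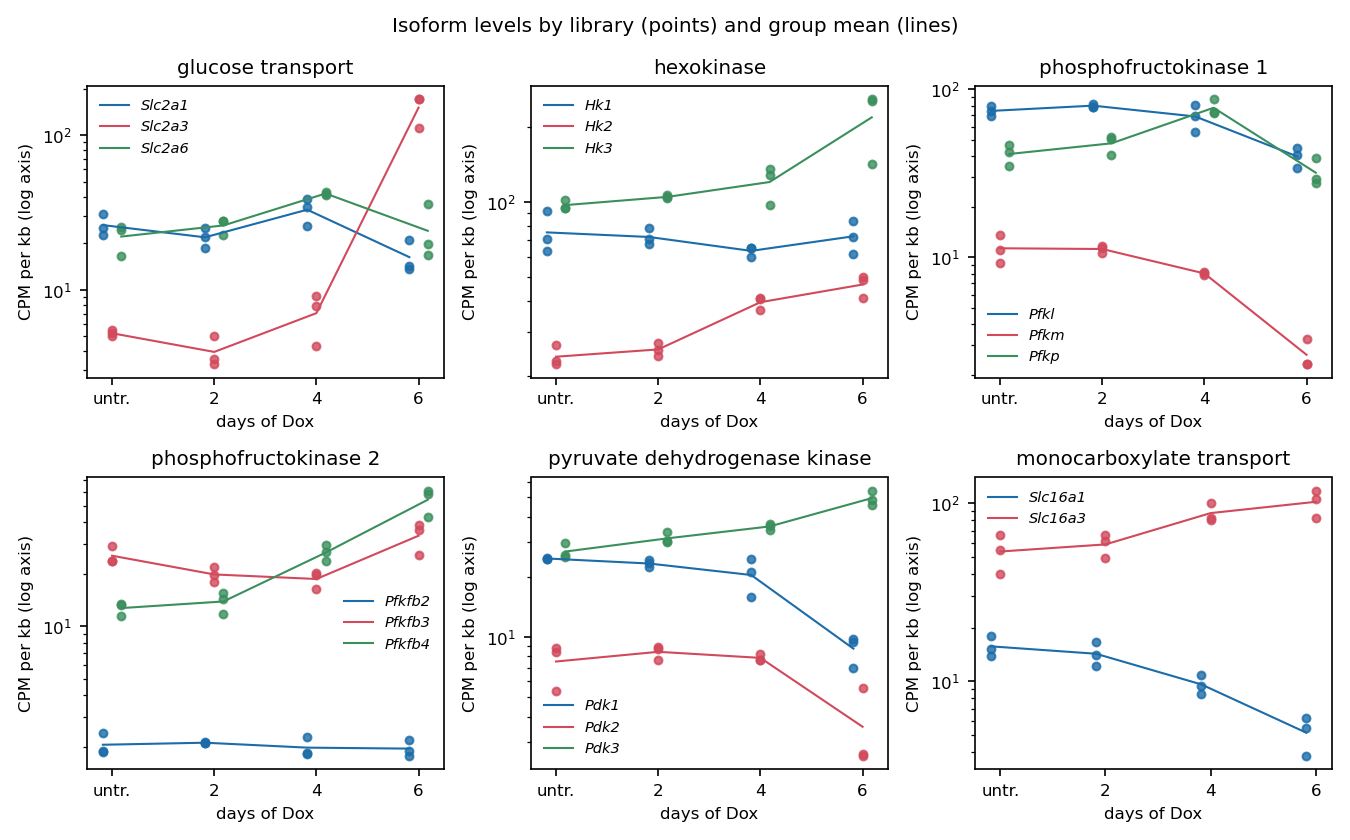
Levels of the isoforms of 6 steps, as CPM per kb on log axes, over untreated cells and days 2, 4 and 6; points are libraries and lines join group means. Slc2a3 and Pfkfb4 end above the other isoforms of their step at day 6, Pfkp passes Pfkl at day 4, and Pdk1 and Slc16a1 end lower than in untreated cells.

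Hexokinases, which commit glucose to the cell by phosphorylating it, included 2 genes that rose, Hk3 and Hk2. Hk3 encodes the form typical of myeloid cells, and it had 332, 309.9 and 309 CPM in untreated libraries, 341, 346 and 338 after 2 days, 441, 419 and 317 after 4 days and 843, 464 and 833 after 6 days. All day 6 libraries exceeded all others, although replicate 2 lay well below the other two of its group, and the change was 1.17 ± 0.19 (adjusted p = 1.84e-04), or 1.40, adjusted p = 4.69e-08 without that replicate. Hk2, the inducible form that binds mitochondria, had 126, 146 and 123 CPM in untreated libraries, 140.5, 133 and 149 after 2 days, 224, 203 and 226 after 4 days and 267, 226 and 275 after 6 days. It rose already at day 4 (0.73 ± 0.10, adjusted p = 1.29e-04) and stayed up at day 6 (0.96 ± 0.10, adjusted p = 3.91e-06), with no overlap with untreated on either day. Hk1, the form found in most tissues, had 285, 416 and 318 CPM in untreated libraries, 304, 319 and 353 after 2 days, 271, 294 and 294 after 4 days and 379, 279 and 325 after 6 days. Its libraries overlapped at every time, and its changes of -0.25 at day 4 and -0.05 at day 6 did not pass the test. The share of Hk3 per kb was 63.9% ± 5.15 at day 6 and 49.7% ± 4.91 in untreated cells. That of Hk1 was 22% ± 3.07 at day 6 and 38.2% ± 4.76 in untreated cells, and that of Hk2 14.1% ± 2.3 at day 6 and 12.2% ± 0.269 in untreated cells. Hk3 was the highest of the 3 per kb in every library, so the leading isoform stayed the same by that measure. In CPM not divided by length, Hk1 was above Hk3 in untreated replicates 2 and 3 and in day 2 replicate 3. Gpi1, which encodes the isomerase of the next step, had 1206 ± 84.6 CPM in untreated cells, 1028 ± 149 at day 2, 925 ± 42.8 at day 4 and 1411 ± 198 at day 6. It fell at day 4 (-0.38 ± 0.13, adjusted p = 0.0265) and was 0.23 at day 6 (adjusted p = 0.126), and the rise from day 4 to day 6, 0.61 ± 0.13 (adjusted p = 0.00189), lost its call with library totals (0.20, adjusted p = 0.145). The day 4 call of Gpi1 was lost without any of untreated replicates 1 and 3 and the 3 day 4 libraries (adjusted p of 0.0553 to 0.094).

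At phosphofructokinase 1, the main control point of the pathway, the leading isoform per kb changed at day 4 and was that of untreated cells again at day 6. Pfkp, the platelet type, had 139, 168 and 186 CPM in untreated libraries, 202, 206 and 162 after 2 days, 348, 289.7 and 292 after 4 days and 111, 155 and 116 after 6 days. Its day 4 libraries stood above all others (0.91 ± 0.15, adjusted p = 4.51e-04), and it then fell by day 6 (-1.28 ± 0.15, adjusted p = 4.61e-05 against day 4). Against untreated the day 6 value was -0.37 ± 0.15 (adjusted p = 0.0466), with overlapping libraries. That call was lost without any 1 of untreated replicates 2 and 3, day 2 replicates 1 and 2, day 4 replicates 2 and 3, and day 6 replicates 1 and 3 (adjusted p of 0.0555 to 0.169), with the replicate number as a block (adjusted p = 0.0519), with no filter (adjusted p = 0.0533) and with only the 2 groups compared (adjusted p = 0.075). Pfkl, the liver type, had 259, 296 and 275 CPM in untreated libraries, 305, 294 and 294 after 2 days, 302, 208 and 259.8 after 4 days and 151, 168 and 126 after 6 days. All day 6 libraries lay below all others, at -0.90 ± 0.13 (adjusted p = 6.71e-05). Pfkm, the muscle type, had 41.5, 28.3 and 33.8 CPM in untreated libraries, 34.5, 35.7 and 32.4 after 2 days, 24.9, 23.9 and 24.5 after 4 days and 7.04, 9.97 and 7.03 after 6 days. It fell at day 6 by the most of any member (-2.09 ± 0.17, adjusted p = 4.04e-07). At day 4 it was at -0.50 ± 0.15 (adjusted p = 0.0167), a call lost without untreated replicate 1 (-0.34, adjusted p = 0.0899) or day 4 replicate 2 (-0.47, adjusted p = 0.0627).

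The share of Pfkl in the step per kb was 58.6% ± 2.3 in untreated cells, 57.7% ± 2.67 at day 2, 44.4% ± 2.97 at day 4 and 53.7% ± 3.24 at day 6. That of Pfkp was 32.4% ± 2.99 in untreated cells, 34.3% ± 2.68 at day 2, 50.4% ± 2.57 at day 4 and 42.8% ± 3.02 at day 6. The ratio of Pfkp to Pfkl was 1.07, 1.3 and 1.05 in the day 4 libraries, against 0.499, 0.53 and 0.631 in untreated ones, and it was 0.685, 0.861 and 0.861 at day 6. Pfkp thus led in all 3 libraries at day 4 alone, and Pfkl led in all libraries of the other groups. Exons of Pfkp overlap those of Pitrm1 on the opposite strand over 748 bases, and no source used here says whether the counting used strand. Pitrm1 had 145 CPM in untreated cells, 119 at day 2, 81.2 at day 4 and 44.6 at day 6, lower at each time than at the one before.

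The bifunctional enzymes that make and break the activator of phosphofructokinase 1 changed their leading isoform and kept the new one. Pfkfb4, whose product is known from testis and from tumours, had 45.4, 38.4 and 45 CPM in untreated libraries, 39.6, 48.7 and 52.3 after 2 days, 80.3, 99.1 and 89.98 after 4 days and 205, 145 and 195 after 6 days. Neither the day 4 nor the day 6 libraries overlapped untreated, with changes of 1.07 ± 0.15 (adjusted p = 1.11e-04) and 2.08 ± 0.15 (adjusted p = 1.46e-07), and day 6 was also above day 4 (1.01 ± 0.14, adjusted p = 1.32e-04). Pfkfb3, whose product has the highest kinase activity of the family, had 126, 127 and 154 CPM in untreated libraries, 105, 95.4 and 116 after 2 days, 107, 104 and 87 after 4 days and 190.4, 136 and 204 after 6 days. It fell at day 4 (-0.45 ± 0.15, adjusted p = 0.0288), a call lost without untreated replicate 3, day 4 replicate 2 or day 4 replicate 3 (adjusted p of 0.109, 0.0583 and 0.118). At day 6 it overlapped untreated and was at 0.38 ± 0.15 (adjusted p = 0.0353), which turned to -0.15 (adjusted p = 0.315) with library totals. That call was also lost with upper-quartile factors (adjusted p = 0.423), with only the 2 groups compared (adjusted p = 0.097) and without any 1 of untreated replicates 1 and 2 and day 6 replicates 1 and 3 (adjusted p of 0.104 to 0.149). Pfkfb2, the heart type, had 19.9 ± 3.02 CPM in untreated cells, 20.5 ± 0.217 at day 2, 19.2 ± 2.47 at day 4 and 18.9 ± 2.08 at day 6, and no comparison of it passed the test. The share of Pfkfb4 in the step per kb was 31.6% ± 2.09 in untreated cells, 38.6% ± 3.51 at day 2, 56.2% ± 3.82 at day 4 and 60.4% ± 1.37 at day 6. That of Pfkfb3 was 63.3% ± 2.99 in untreated cells, 55.5% ± 3.4 at day 2, 39.6% ± 3.93 at day 4 and 37.3% ± 1.7 at day 6, so the pair changed places by day 4. The ratio of Pfkfb4 to Pfkfb3 was 1.69, 1.68 and 1.5 in day 6 libraries, against 0.567, 0.476 and 0.46 in untreated ones. The order rests on gene length: in counts not divided by length, Pfkfb3 was the higher of the pair in 2 of 3 day 4 libraries and in 1 of 3 day 6 libraries.

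**Figure D3:**
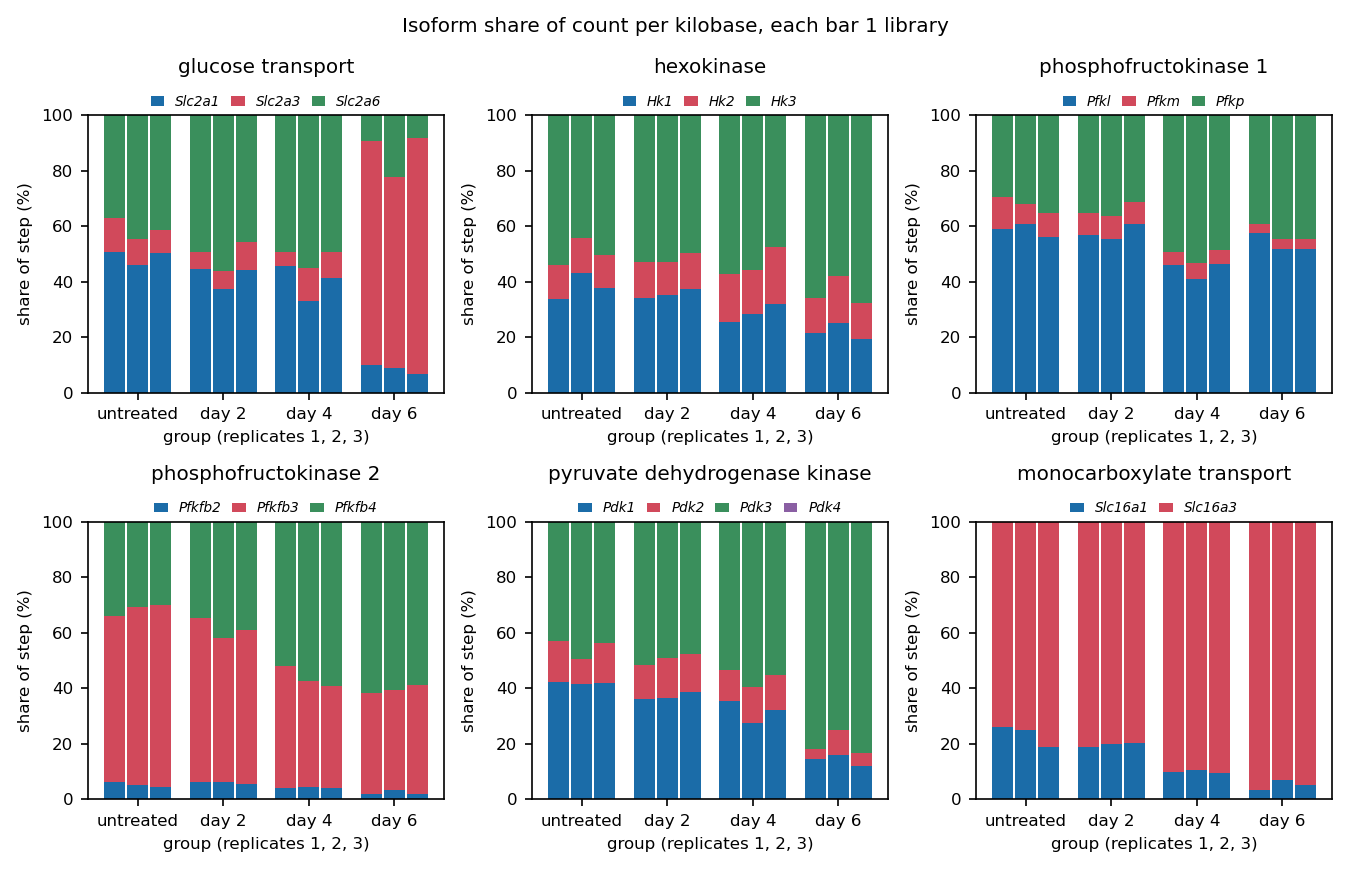
Share of each isoform in the summed count per kb of its step, in percent, for 6 steps; each bar is 1 library, grouped as untreated, day 2, day 4 and day 6. At day 6 Slc2a3 takes 69% to 85% of the summed count per kb of the glucose transport step, and Pdk3 averages 80.1% of that of the kinases.

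In the lower part of glycolysis, with TMM scaling, Pkm changed more than the other abundant enzymes. This order depends on the scaling: with library totals Pkm was at 0.43 and Tpi1 at -0.97 at day 6. Pkm, which encodes the pyruvate kinase of most non-liver tissues, had 926, 1107 and 1027 CPM in untreated libraries, 1056, 1107 and 1167 after 2 days, 1486, 1403 and 1546 after 4 days and 2141, 1894 and 1886 after 6 days. The libraries of days 4 and 6 overlapped neither each other nor untreated, and the changes were 0.54 ± 0.10 (adjusted p = 8.15e-04) and 0.95 ± 0.10 (adjusted p = 2.75e-06). The rise of Pkm from day 4 to day 6, 0.42 ± 0.10 (adjusted p = 0.00373), lost its call with library totals (0.01, adjusted p = 0.903). The counts do not separate its M1 and M2 splice forms. Aldoa, the main aldolase, had 763, 838 and 972 CPM in untreated libraries, 931, 853 and 948 after 2 days, 1113, 889 and 1191 after 4 days and 1191, 822 and 959 after 6 days. Its groups overlapped, and its changes of 0.31 and 0.21 at days 4 and 6 did not pass the test. Aldoc, the brain type, held at most 0.316% of aldolase per kb in any library. Its level was 0.756 ± 0.22 CPM in untreated cells, 1.99 ± 0.388 at day 2, 2.26 ± 1.09 at day 4 and 1.49 ± 0.618 at day 6. Its day 4 call (1.56 ± 0.46, adjusted p = 0.0157) was lost without untreated replicate 2 (1.38, adjusted p = 0.0597) or day 4 replicate 3 (1.09, adjusted p = 0.0973).

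Tpi1, which encodes the triosephosphate isomerase, fell and was at 277 ± 38.5 CPM at day 6 and 376 ± 18 in untreated cells (-0.44 ± 0.11, adjusted p = 0.00396). Pgk1, the kinase that makes the first ATP of the pathway, had 53.2 ± 4.75 CPM in untreated cells, 52.7 ± 0.625 at day 2, 64.3 ± 7.53 at day 4 and 65.5 ± 3.34 at day 6. Its log2 change was 0.30 ± 0.10 (adjusted p = 0.0173) at day 6, which turned to -0.21 (adjusted p = 0.0907) with library totals. That call was also lost with upper-quartile factors (0.05, adjusted p = 0.655), with only the 2 groups compared (adjusted p = 0.0604) and without untreated replicate 1 or day 6 replicate 3 (adjusted p of 0.0735 and 0.0517). At day 4 Pgk1 was at 0.27 ± 0.10 (adjusted p = 0.0408), and that call was lost with DESeq2 (adjusted p = 0.0616), with the replicate number as a block (adjusted p = 0.0507), with upper-quartile factors (adjusted p = 0.15), with library totals (adjusted p = 0.25) and with only the 2 groups compared (adjusted p = 0.0597). It was also lost without any 1 of untreated replicates 1 and 3, the 3 day 2 libraries and day 4 replicates 1 and 3 (adjusted p of 0.0533 to 0.189). Pgam1, the mutase, had 105 ± 4.37 CPM in untreated cells, 90.8 ± 2.75 at day 2, 89.3 ± 9.82 at day 4 and 91.9 ± 6.39 at day 6. All its day 2, day 4 and day 6 libraries lay below the untreated ones, yet its changes of -0.21, -0.23 and -0.19 did not pass the test (adjusted p = 0.318, 0.055 and 0.0788). Eno1, the main enolase, had 446, 538 and 505 CPM in untreated libraries, 477.7, 510.3 and 535 after 2 days, 563, 536 and 569 after 4 days and 604, 463 and 485.1 after 6 days. Its libraries overlapped at every time, and the change at day 6 was 0.06 (adjusted p = 0.651). Eno3, the muscle enolase, had 2.99, 5.14 and 4.49 CPM in day 6 libraries, against 7.52, 9.74 and 10.1 in untreated libraries. It fell at day 6 with no overlap (-1.09 ± 0.25, adjusted p = 0.00191) and held 0.976% ± 0.363 at day 6 and 2.09% ± 0.17 in untreated cells of the enolase step per kb. Its day 4 call (-0.82 ± 0.24, adjusted p = 0.0159) was lost without untreated replicate 3 (-0.74, adjusted p = 0.0521) or day 4 replicate 1 (-0.64, adjusted p = 0.0642).

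Gapdh, the dehydrogenase often used as a reference for loading, was listed at a very low level. It had 4.11, 4.18 and 2.87 CPM in untreated libraries, 3.65, 4.39 and 4.19 after 2 days, 3.001, 4.67 and 6.46 after 4 days and 8.32, 5.3 and 8.004 after 6 days. Day 6 lay above untreated in all libraries (0.94 ± 0.29, adjusted p = 0.0128), a call lost without untreated replicate 3 (0.78, adjusted p = 0.0511) and with library totals (0.41, adjusted p = 0.203). Its group means were 3.02, 3.31, 3.82 and 5.85 CPM per kb over the course, whereas Aldoa, the enzyme 2 steps earlier, averaged 470.2, 499, 584 and 543 CPM per kb. Of the 50-base windows of the Gapdh transcripts, 82.5% occurred also in transcripts of other genes, 215 of them pseudogenes. The same held for 72.2% of windows in Eno1, 68.0% in Pgk1, 41.5% in Pgam1, 34.4% in Pkm, 30.3% in Pdhb, 27% in Ldhb, 25.3% in Gpi1, 25.1% in Pfkfb2, 17.1% in Pfkp, 16.9% in Pdha1, 16.7% in Ldha and 13.5% in Aldoa. It held for at most 7.51% in each of the other members, and for 0% in Slc2a3, Slc2a6, Hk2, Hk3, Pfkm, Pfkfb4, Pdk1, Pdk2, Pdk3, Slc16a1, Slc16a3 and G6pc3 among them. No source used here gives the read length or the treatment of reads that match several genes, and the part of shared sequence in these levels was not tested. Levels of Gapdh, Eno1, Pgk1 and Pgam1, which shared the most windows, are therefore uncertain. Those of Pkm, Pdhb and the other members with shared windows may be affected too. Eno1b, a near copy of Eno1 that is counted as a gene of its own, shared 84.5% of its windows and had 111 ± 23.2 CPM in untreated cells, 101 ± 7.19 at day 2, 121 ± 1.74 at day 4 and 127 ± 26 at day 6.

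**Figure D4:**
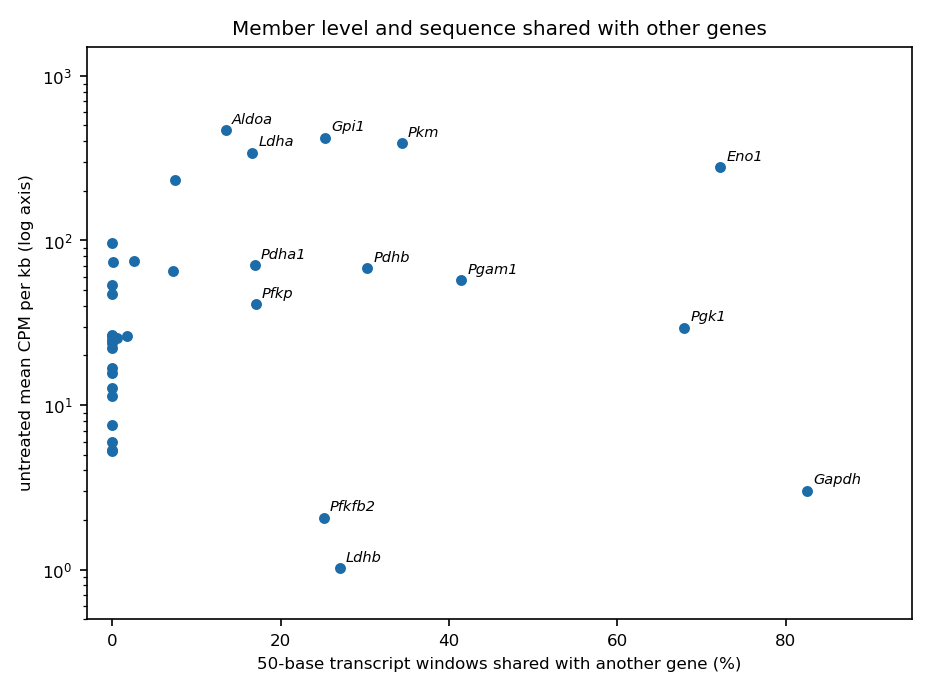
Mean level of each tested member in untreated cells (CPM per kb, log axis) against the percent of its 50-base transcript windows that also occur in another gene; each point is a gene. Gapdh shares 82.5% and sits at 3.02 CPM per kb, whereas Eno1 shares 72.2% and sits at 279.5.

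At the branch to lactate, Ldha fell and remained the leading isoform per kb. Ldha, whose subunit favours the reduction of pyruvate, had 581, 719 and 679 CPM in untreated libraries, 647, 627 and 677 after 2 days, 716, 595 and 699.7 after 4 days and 555, 496 and 474.4 after 6 days. The day 6 libraries lay below the untreated ones (-0.38 ± 0.11, adjusted p = 0.00708, and -0.89 with library totals), and the change at day 4 was 0.02 (adjusted p = 0.883). Ldhb, the heart subunit, had 1.32 ± 0.408 CPM in untreated cells, 1.12 ± 0.636 at day 2, 1.18 ± 0.165 at day 4 and 1.3 ± 1.38 at day 6, and no comparison of it passed the test. Ldha held 99.6% ± 0.414 of the step per kb at day 6 and 99.7% ± 0.0673 in untreated cells.

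The exporters of lactate moved apart. Slc16a3 encodes MCT4, a low-affinity exporter known from strongly glycolytic cells, and it had 103, 141 and 169.8 CPM in untreated libraries, 157, 126 and 170.3 after 2 days, 259, 208 and 214 after 4 days and 303, 213 and 272 after 6 days. Both the day 4 and the day 6 libraries lay above untreated, at 0.72 ± 0.19 (adjusted p = 0.00869) and 0.93 ± 0.19 (adjusted p = 8.11e-04). Slc16a1 encodes MCT1, which carries lactate in or out, and it had 61.5, 79.9 and 66.9 CPM in untreated libraries, 61.8, 54 and 73.5 after 2 days, 48.2, 41.6 and 37.7 after 4 days and 16.8, 27.3 and 24 after 6 days. It fell at both times with no overlap with untreated, at -0.71 ± 0.17 (adjusted p = 0.00466) and -1.60 ± 0.18 (adjusted p = 6.04e-06). The ratio of Slc16a3 to Slc16a1 per kb was 30.9, 13.4 and 19.4 in day 6 libraries, against 2.87, 3.04 and 4.36 in untreated ones. The share of Slc16a3 was 76.9% ± 3.88 in untreated cells, 80.4% ± 0.802 at day 2, 90.2% ± 0.555 at day 4 and 95% ± 1.91 at day 6, so the leading form stayed the same. The promoters printed above for this pair both held ACGTG, once inside CACGTG in Slc16a1. A link between this motif and the changes of the pair was not tested.

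At the branch to the mitochondrion, the genes of the pyruvate dehydrogenase complex fell, and its kinases moved in opposite directions. Pdha1, the catalytic E1 alpha subunit, fell to 118 ± 12.3 CPM at day 6, against 195 ± 15.4 CPM in untreated cells (-0.73 ± 0.10, adjusted p = 2.57e-05), and it had fallen at day 4 (-0.50 ± 0.10, adjusted p = 0.00119). Its exons overlap Map3k15 on the opposite strand over 603 bases, and Map3k15 had 38.8 CPM at day 6 and 9.98 CPM in untreated cells. Pdhb, the E1 beta subunit, was at 70.1 ± 12.2 CPM at day 6 and 101 ± 5.26 in untreated cells (-0.52 ± 0.11, adjusted p = 9.60e-04). Dlat, the E2 subunit, was at 63.3 ± 13.5 CPM at day 6 and 107 ± 12.1 in untreated cells (-0.75 ± 0.13, adjusted p = 3.05e-04). Pdp1, which encodes a phosphatase that reactivates the complex, was at 16.4 ± 3.4 CPM at day 6 and 22.8 ± 1.83 in untreated cells (-0.48 ± 0.15, adjusted p = 0.0114). All 4 genes had every day 6 library below every untreated one, and their group means were lower at each day than at the one before.

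Of the kinases that inactivate the complex, Pdk1, a known target of HIF-1, had 127, 128 and 127 CPM in untreated libraries, 120.0, 115 and 125 after 2 days, 126, 81.1 and 108 after 4 days and 48.4, 50.3 and 36.1 after 6 days. The day 6 libraries lay far below the untreated ones, which agreed closely, and the change was -1.50 ± 0.15 (adjusted p = 2.94e-06). Pdk2, the broadly expressed form, had 19.99, 12.1 and 19.1 CPM in untreated libraries, 17.5, 20.1 and 19.7 after 2 days, 17.4, 17.4 and 18.6 after 4 days and 5.76, 12.5 and 5.86 after 6 days. It fell at day 6 (-1.05 ± 0.27, adjusted p = 0.00401), but replicate 2 reached the lowest untreated library; without that replicate the value was -1.55, adjusted p = 2.53e-05. Pdk3 had 50.2, 59 and 51.4 CPM in untreated libraries, 66.8, 60.2 and 60.03 after 2 days, 73.7, 68.8 and 72.1 after 4 days and 108, 91.9 and 97.4 after 6 days. It rose at days 4 and 6 (0.42 ± 0.09, adjusted p = 0.00312, and 0.89 ± 0.09, adjusted p = 3.41e-06), and the libraries of days 2, 4 and 6 each lay above all untreated ones. The share of Pdk3 in the step per kb was 45.3% ± 3.59 in untreated cells, 49.5% ± 2.12 at day 2, 56% ± 3.13 at day 4 and 80.1% ± 4.52 at day 6. That of Pdk1 was 41.9% ± 0.255 in untreated cells, 37.1% ± 1.3 at day 2, 31.7% ± 4.13 at day 4 and 14.1% ± 1.97 at day 6. The ratio of Pdk3 to Pdk1 was 5.73, 4.69 and 6.93 in day 6 libraries, against 1.02, 1.19 and 1.04 in untreated ones, in which the pair were nearly level. Pdk3 led per kb in every library, so this was no switch by that rule; in counts not divided by length, Pdk1 was the higher of the pair in all untreated libraries and Pdk3 in all day 6 libraries.

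Of the genes that run the pathway backwards, G6pc3 fell and Fbp1 did not pass the test. G6pc3, the glucose-6-phosphatase of non-liver tissues, whose loss in humans causes severe congenital neutropenia, had 66.8, 78.4 and 74.7 CPM in untreated libraries, 63.8, 52.7 and 64 after 2 days, 49.8, 51.3 and 39.9 after 4 days and 22.2, 27 and 24.6 after 6 days. The libraries of days 2, 4 and 6 lay below all untreated ones, and the called changes were -0.64 ± 0.12 (adjusted p = 0.00109) and -1.57 ± 0.13 (adjusted p = 4.27e-07). Its promoter, printed above, held the most matches to GAGGAA of the 4 shown. All matches to ACGTG in that promoter lay in CACGTG palindromes, which count as 2 matches each. Fbp1, the fructose bisphosphatase, had 23.9 ± 6.84 CPM in untreated cells, 33.5 ± 9.73 at day 2, 20.04 ± 4.29 at day 4 and 29.3 ± 5.81 at day 6, and its libraries overlapped at every time. Hif1a was at 311 ± 35.1 CPM in untreated cells, 269 ± 5.21 at day 2, 288 ± 11.4 at day 4 and 257 ± 13.9 at day 6. Its day 6 call, at -0.28 ± 0.09 (adjusted p = 0.0144), was lost without untreated replicate 3 (-0.19, adjusted p = 0.0719) or day 6 replicate 1 (-0.23, adjusted p = 0.0589) or with only the 2 groups compared (adjusted p = 0.0522), and became -0.79 with library totals.

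In 3 of the 9 steps with several isoforms, glucose transport, phosphofructokinase 1 and phosphofructokinase 2, the isoform that led per kb in all 3 untreated libraries was not the one that led in all 3 libraries of a later group. In the remaining 6, hexokinase, aldolase, enolase, lactate dehydrogenase, pyruvate dehydrogenase kinase and monocarboxylate transport, the same isoform led throughout. Without day 6 replicate 2 the day 6 share was 82.9% for Slc2a3, 60.3% for Pfkfb4, 82.7% for Pdk3 and 4.02% for Slc16a1.

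Further genes of the pathway were read from a second list of 41, of which 25 were tested. None of the 25 was called at day 2 by edgeR, where 3 had an unadjusted p under 0.05; 7 rose and 5 fell at day 4 (28% and 20%, against 22.1% and 20.2% of all genes), and 9 rose and 8 fell at day 6 (36% and 32%, against 35% and 32.9%). These shares were near those of all genes. Adpgk, which encodes an ADP-dependent glucokinase of the endoplasmic reticulum, had 63.1, 79.1 and 58.8 CPM in untreated libraries, 55.3, 63.2 and 80.7 after 2 days, 79.4, 129.6 and 106 after 4 days and 2707, 1409.8 and 2574 after 6 days. The day 6 libraries stood far above the other 9, with a change of 5.06 ± 0.29 (adjusted p = 8.06e-08), and 0% of its windows were shared with other genes. Txnip, whose product limits glucose uptake, had 646, 506 and 549.8 CPM in day 6 libraries, against 287, 201 and 192 in untreated libraries. It rose with no overlap (1.32 ± 0.16, adjusted p = 1.46e-05). Pgam2, the muscle mutase (1.94 ± 0.21, adjusted p = 5.26e-06), Pgp, a phosphatase that clears side products of the pathway (1.20 ± 0.14, adjusted p = 9.42e-06), and Galm, the galactose mutarotase (1.14 ± 0.16, adjusted p = 4.06e-05), rose too. Mpc1 and Mpc2, which form the carrier that brings pyruvate into mitochondria, were at 14.3 ± 1.84 and 90.4 ± 10.9 CPM at day 6, against 8.11 ± 0.729 and 51.1 ± 11.1 CPM in untreated cells. Their changes were 0.82 ± 0.16 (adjusted p = 5.40e-04) and 0.82 ± 0.14 (adjusted p = 1.97e-04), and Mpc2 was named as the partner of Mpc1 after its values were seen.

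Among those that fell, Emb, which encodes a partner protein of monocarboxylate transporters, had 518, 627 and 509.7 CPM in day 6 libraries, against 1121, 1258 and 1169 in untreated libraries. The groups did not overlap (-1.10 ± 0.12, adjusted p = 5.49e-06). Further parts of the pyruvate dehydrogenase system fell with the members above: Pdhx, the E3-binding subunit (-0.97 ± 0.14, adjusted p = 6.30e-05), Dld, the E3 subunit (-0.58 ± 0.10, adjusted p = 1.76e-04), and Pdp2, the second phosphatase (-0.83 ± 0.15, adjusted p = 3.62e-04). Slc37a4, the transporter that feeds glucose-6-phosphate to G6pc3 in the endoplasmic reticulum, fell as well (-0.81 ± 0.12, adjusted p = 4.74e-05), as did Pck2, the mitochondrial phosphoenolpyruvate carboxykinase (-0.55 ± 0.08, adjusted p = 3.23e-05).

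**Figure D5:**
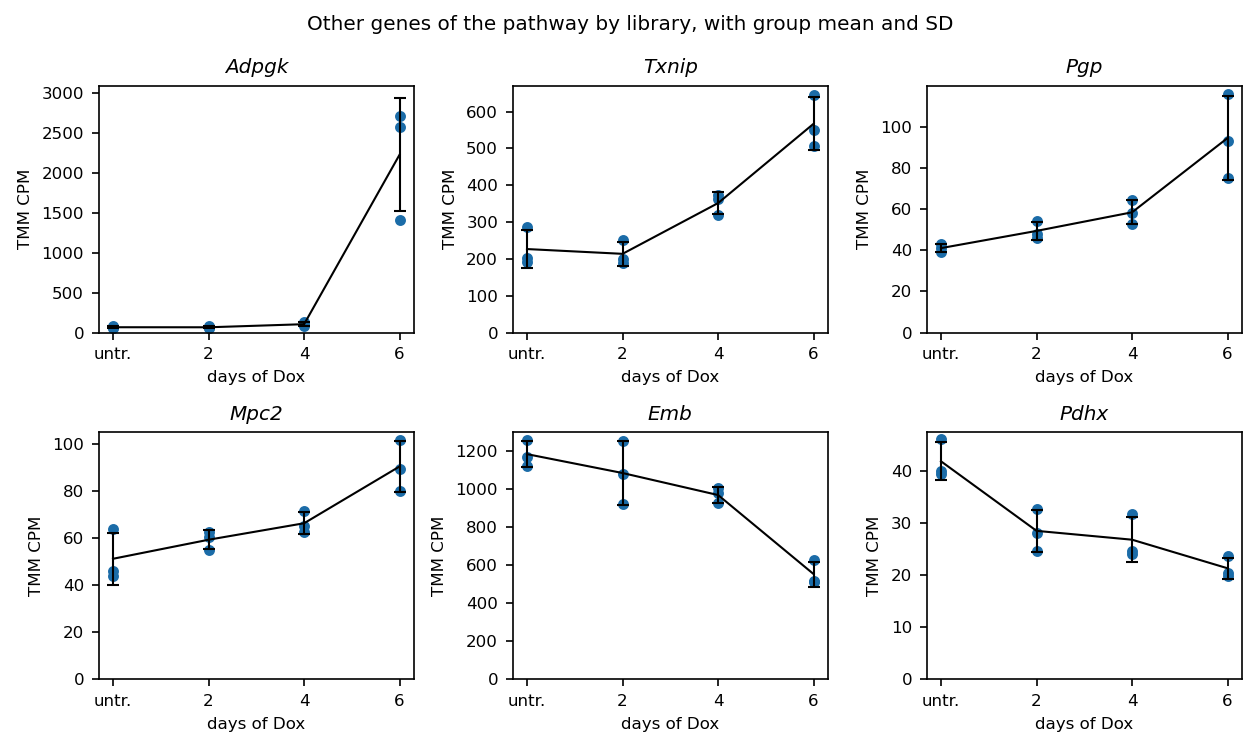
TMM-scaled CPM of 6 further pathway genes in untreated cells and at days 2, 4 and 6; points are libraries and bars the mean and SD of 3. Adpgk averages 2230.2 CPM at day 6 and 67 in untreated cells, and Emb 552 and 1183.

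Genes known to respond to hypoxia did not move one way beside the members. Of 24 on a list, 21 were tested. At day 2 none rose and 1 fell (4.76%, against 0.406% of all genes), and at day 4, 2 rose and 7 fell (9.52% and 33.3%, against 22.1% and 20.2%). At day 6, 6 rose and 6 fell (28.6% each, against 35% and 32.9%). The largest rises were those of Bhlhe40, a transcriptional repressor (1.60 ± 0.39, adjusted p = 0.00369), Bnip3l, a mitophagy receptor (1.30 ± 0.13, adjusted p = 2.25e-06), Vhl, which marks HIF-1 for degradation (1.19 ± 0.12, adjusted p = 1.90e-06), and Ndrg1 (0.74 ± 0.28, adjusted p = 0.0374). The largest falls were those of the carbonic anhydrase Car12 (-4.51 ± 0.35, adjusted p = 2.94e-07), the adenylate kinase Ak4 (-3.05 ± 0.31, adjusted p = 3.72e-06), the HIF prolyl hydroxylase Egln3 (-2.07 ± 0.20, adjusted p = 3.11e-06) and the carbonic anhydrase Car9 (-2.03 ± 0.24, adjusted p = 1.02e-05). Car9, Egln3 and Ak4 fell together with Pdk1, while Slc2a3, Hk2, Pfkfb4 and Slc16a3, which are also known HIF-1 targets, rose. Slc2a1 and Ldha, likewise known HIF-1 targets, fell at day 6.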

How the data were processed

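RNA of 12 libraries, 3 per group, was sequenced. The deposited files hold raw counts per Entrez gene, made by the authors and not normalized, with a deposited gene length in bases. The submitters' processing notes list featureCounts, limma 3.22.0, edgeR 3.8.2, CASAVA 1.8.2 and the build mm10. The aligner, read length, strand setting and handling of reads that match several genes are not given in the sources. The 27179 identifiers were named from RefSeq (25275 matched), and windows shared between transcripts were read from GENCODE M21 transcripts.

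The counts were fitted in R 4.3.3 with edgeR 4.0.16: filterByExpr kept 12057 genes, TMM factors were used, and all 12 libraries entered one robust quasi-likelihood fit with the group as the only term, with 8 residual degrees of freedom and a biological coefficient of variation of 14.3%. TMM factors were 0.737 to 0.847 at day 6 and 1.02 to 1.15 in the other libraries. The SE was the log2 change over the square root of F. Isoform shares were computed from counts per kb and compared by exact two-sided permutation. The script was tested on simulated data. Alternatives were DESeq2 1.42.0, other scalings and filters, the replicate number as a block, the 2 compared groups alone and leaving out each library. Every tested member is named, with values by library for isoforms with at least 10% of a step and for members with a called log2 change of at least 1 at day 6. Of the further pathway genes up to 6 called in each direction at day 6 are named, and of the hypoxia genes up to 4, by size. Mpc2 is named besides, as the partner of Mpc1. The members and lists were chosen with earlier results of these data known. The variance between libraries was 2.62 to 44.1 times that expected from counting in each pair of a group. At 4918920 to 7356166 counts a library, 3 counts correspond to 0.408 to 0.61 CPM.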

Additional observations from a re-analysis of the deposited data

How the results depend on the processing

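Of the 26 member calls at day 6, 21 held under all alternatives run, as did 10 of 16 at day 4, 15 of 20 from day 4 to day 6 and 4 of 12 from day 2 to day 4. The numbers of members called at day 6 stayed within 1.5 times of 10 higher and 16 lower under every alternative. Of the members called higher at day 6 with TMM, Pfkfb3 and Pgk1 had log2 changes that reversed with library totals, to -0.15 and -0.21. Members called lower at day 6 became 22 with library totals, so some that were not called with TMM were called lower there. From day 4 to day 6, members called became 4 higher and 21 lower with library totals. From day 2 to day 4 the members called higher were 4 with upper-quartile factors, 4 with library totals and 5 with no filter, and those called lower were 2 with no filter and 2 with the replicate block. Leaving out 1 library in turn gave 4 to 9 higher and 0 to 5 lower there, and 4 to 10 lower at day 4 against untreated. Over all genes it gave 1268 to 2311 higher, 581 to 1882 lower and 1670 to 3040 lower in turn. Library totals moved the median of all genes by -0.51 (day 6), -0.12 (day 4), -0.40 (day 6 against day 4) and -0.14 (day 4 against day 2), and upper-quartile factors by -0.25 at day 6. Of all genes, 2283 were called higher and 6764 lower at day 6 with library totals, and 3173 and 5323 with upper-quartile factors, against 4224 and 3967 with TMM.

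Shares of counts not divided by length differed from shares per kb: Slc2a3 15.6% in untreated cells, Hk1 25.6% at day 6 and 42.8% in untreated cells, Pfkfb4 48.1% at day 6 and 21.7% in untreated cells, Ldha 99.8% in untreated cells, Pdk3 65.3% at day 6 and 27.1% in untreated cells, and Slc16a1 8.26% at day 6 and 34.0% in untreated cells. With Eno1b added to Eno1, the Eno1 share in untreated cells was 98.2%.

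The correlation of same-numbered deviations was 0.0081 on average over 18 pairs of libraries (-0.174 to 0.287), and 5 of 18 were over 0.1. Libraries with different numbers were not compared, so these values do not decide whether equal replicate numbers pair the libraries. With the replicate block, members called were 8 up and 7 down on day 4, 10 up and 15 down on day 6, 7 up and 2 down from day 2 to day 4, and 7 up and 13 down from day 4 to day 6. Over all genes the same comparisons gave, in turn, 2616 up and 2315 down, 4144 and 3922, 1723 and 1074, and 2751 and 2680. Depth limits Aldoc, Ldhb, Gapdh and Eno3, which had few counts.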
